A study of Mus musculus with 18 samples.

Results

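The genes described here are 8 enzymes of fatty acid oxidation and the nuclear receptor gene Ppara, read out in the caput epididymis of C57BL/6J mice. They were taken by symbol from the count tables: 9 of the 53819 gene entries, all of which passed the filter on low counts. The caput is the proximal segment of the epididymis, where sperm begin to mature. The study asked how treatment with ethanol (EtOH), and its cessation, bear on this tissue. Controls, a 6% EtOH group and a 10% EtOH group were sampled at 10 weeks, and a second set with the same treatments was sampled after cessation, placed at 1 month by the series title. Each of the 6 groups had 3 libraries. The sources used here do not give the route of ethanol delivery, the ages, how long the cessation mice had been treated, or whether the samples came from separate litters or days. The p-values therefore measure the spread between these samples.

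Fatty acids are burned in both mitochondria and peroxisomes. In mitochondria, Cpt1a joins long-chain fatty acids to carnitine at the outer membrane and Cpt2 returns them to coenzyme A inside. Acyl-CoA dehydrogenases for very long (Acadvl), long (Acadl) and medium (Acadm) chains then take the first oxidation step, and the trifunctional protein made of Hadha and Hadhb carries out the later steps for long chains. Peroxisomes start with acyl-CoA oxidases, which make hydrogen peroxide, and Acox3 acts on branched chains. Ppara is a fatty acid-sensing transcription factor that drives many of these genes in liver.

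Assigned reads ranged from 10.7M to 21.1M per library. Caput epithelial markers were abundant in every library, with Gpx5, a secreted antioxidant enzyme, at 16800 CPM or more (CPM is a count scaled to the size of its library). Both the control cessation replicate 3 library and the 6% EtOH cessation replicate 1 library had the lowest Acox3, Cpt1a and Cpt2 of all 18 libraries. In both, the summed level of 9 epithelial markers was 37100 CPM, against 65400 to 108000 CPM in the other 16. The same libraries, in that order, had the highest sums of endothelial markers (243 and 223 CPM, at most 123 in the others) and basal cell markers (451 and 365 CPM, at most 333 in the others). They also had the highest sums of germ cell markers (256 and 225 CPM, at most 185 in the others) and ciliated cell markers (88.4 and 193 CPM, at most 82.7 in the others). The part of these markers in the levels of the enzymes was not tested. For 6% EtOH cessation replicate 1 the identifier in the sample label is not the one in its table, so it is unclear which animal was sequenced. In bulk tissue, fewer cells of a type and less RNA per cell cannot be told apart. Of 14 adipocyte markers, Adipoq, Plin1 and Lep, which define fat cells, did not exceed 3.20, 2.56 and 2.27 CPM. Others were higher, with Gpd1 at up to 109 CPM and Pnpla2 at up to 66.4 CPM. The sum of all 14 was 199 to 284 CPM at 10 weeks and 157 to 260 CPM after cessation.

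Promoter sequences are shown for the 3 enzymes that were lower after cessation than at 10 weeks (Acox3, Cpt1a and Cpt2) and for the head-to-head pair Hadha and Hadhb. Each is the 250 bases before the RefSeq start site in GRCm38.p6, read 5′ to 3′ along the gene; the deposited counts used GRCm39, so the coordinates belong to the older build only. Capitals mark AGGTCA (the half-site of nuclear receptors), CCAAT or GGGCGG (a GC box), on either strand. The windows are chr5:35582784-35583033 (plus strand) for Acox3, chr19:3323051-3323300 (plus strand) for Cpt1a, chr4:107923590-107923839 (minus strand) for Cpt2, chr5:30154981-30155230 (minus strand) for Hadha and chr5:30155003-30155252 (plus strand) for Hadhb.
Acox3: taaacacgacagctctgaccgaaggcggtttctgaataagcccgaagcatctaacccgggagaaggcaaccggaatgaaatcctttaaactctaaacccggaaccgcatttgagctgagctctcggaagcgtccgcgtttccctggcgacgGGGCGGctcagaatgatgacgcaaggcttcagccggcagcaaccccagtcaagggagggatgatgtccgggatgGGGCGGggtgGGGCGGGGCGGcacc
Cpt1a: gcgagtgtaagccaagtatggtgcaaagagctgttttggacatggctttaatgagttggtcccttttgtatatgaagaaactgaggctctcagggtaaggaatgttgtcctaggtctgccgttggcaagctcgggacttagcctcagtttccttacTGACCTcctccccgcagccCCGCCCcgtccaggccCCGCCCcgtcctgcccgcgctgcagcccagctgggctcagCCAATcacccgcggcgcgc
Cpt2: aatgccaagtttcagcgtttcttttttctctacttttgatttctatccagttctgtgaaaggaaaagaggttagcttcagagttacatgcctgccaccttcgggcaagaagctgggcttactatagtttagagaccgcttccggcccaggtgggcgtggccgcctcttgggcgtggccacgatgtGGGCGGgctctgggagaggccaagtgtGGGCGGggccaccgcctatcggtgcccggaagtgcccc
Hadha: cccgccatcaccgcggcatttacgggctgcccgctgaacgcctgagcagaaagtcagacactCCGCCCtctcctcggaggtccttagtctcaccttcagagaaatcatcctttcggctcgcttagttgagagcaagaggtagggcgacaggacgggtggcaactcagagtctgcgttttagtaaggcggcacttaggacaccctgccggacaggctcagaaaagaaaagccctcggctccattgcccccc
Hadhb: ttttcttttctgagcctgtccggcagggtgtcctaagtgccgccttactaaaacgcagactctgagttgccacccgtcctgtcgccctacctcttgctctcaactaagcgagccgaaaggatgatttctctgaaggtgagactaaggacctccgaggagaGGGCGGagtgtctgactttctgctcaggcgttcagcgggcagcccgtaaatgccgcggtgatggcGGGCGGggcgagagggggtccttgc
The RefSeq start sites of Hadha and Hadhb lie 273 bases apart on opposite strands, and their windows share 228 bases. Gene starts in the GENCODE annotation of GRCm38 differ, at 30155162 for Hadha, 30155248 for Hadhb, 3322334 for Cpt1a and 107923610 for Cpt2. By that annotation the Cpt1a window and parts of the Hadha, Hadhb and Cpt2 windows lie inside their genes. In the full 300-base windows, which add 50 bases after the start, GGGCGG was found in 7 of 9 members and in 35.7% of 32851 mouse promoters. AGGTCA was found in 3 of 9 (Acadm, Acadvl and Cpt1a) and in 16.3% of promoters, and CCAAT in Cpt1a alone among the members and in 37.4% of promoters. The paired form of the PPAR site, AGGTCANAGGTCA, was in none of the 9 windows and in 0.0396% of promoters, and the looser AGGNCANAGGNCA was in none and in 0.381%. TATAAA (13.6% of promoters) and TGACGTCA (1.79%) were in none of the 9. These motifs were chosen after the promoter sequences had been seen.

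Acox3 was the most abundant member and Cpt1a the next. Over the 18 libraries Acox3 had 555 ± 123 CPM (SD) and Cpt1a 340 ± 83.7 CPM, both TMM-normalised. Per kilobase of the principal transcript, the mean level was 140 CPM for Acox3, 78.8 for Cpt1a, 42.6 for Hadha, 34.1 for Hadhb, 32.4 for Acadl, 30.3 for Acadm, 15.1 for Acadvl, 9.32 for Cpt2 and 2.72 for Ppara. Neighbours from Acox3 down to Acadm overlapped in their ranges over libraries, while Acadm and Acadvl, Acadvl and Cpt2, and Cpt2 and Ppara did not. With the length of all exons in place of the principal transcript, which was chosen after those values were seen, Acox3 (48.2 CPM per kilobase) and Cpt1a (44.5) still led and Hadhb (10.6) lay below Acadl (31.0). The steadiest members were Acadm, whose highest library was 1.38 times its lowest, and Hadha, at 1.40 times. Cpt1a, Cpt2 and Acox3 spanned 2.89, 2.67 and 2.53 times. In the GRCm38 annotation, 42.9% of the exon bases of Acadvl are shared with Dvl2 on the opposite strand and 6.08% of those of Acox3 with the antisense gene 4931431C16Rik. Whether reads were counted by strand is not stated in these sources, so the count of Acadvl in particular is uncertain.

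**Figure D1:**
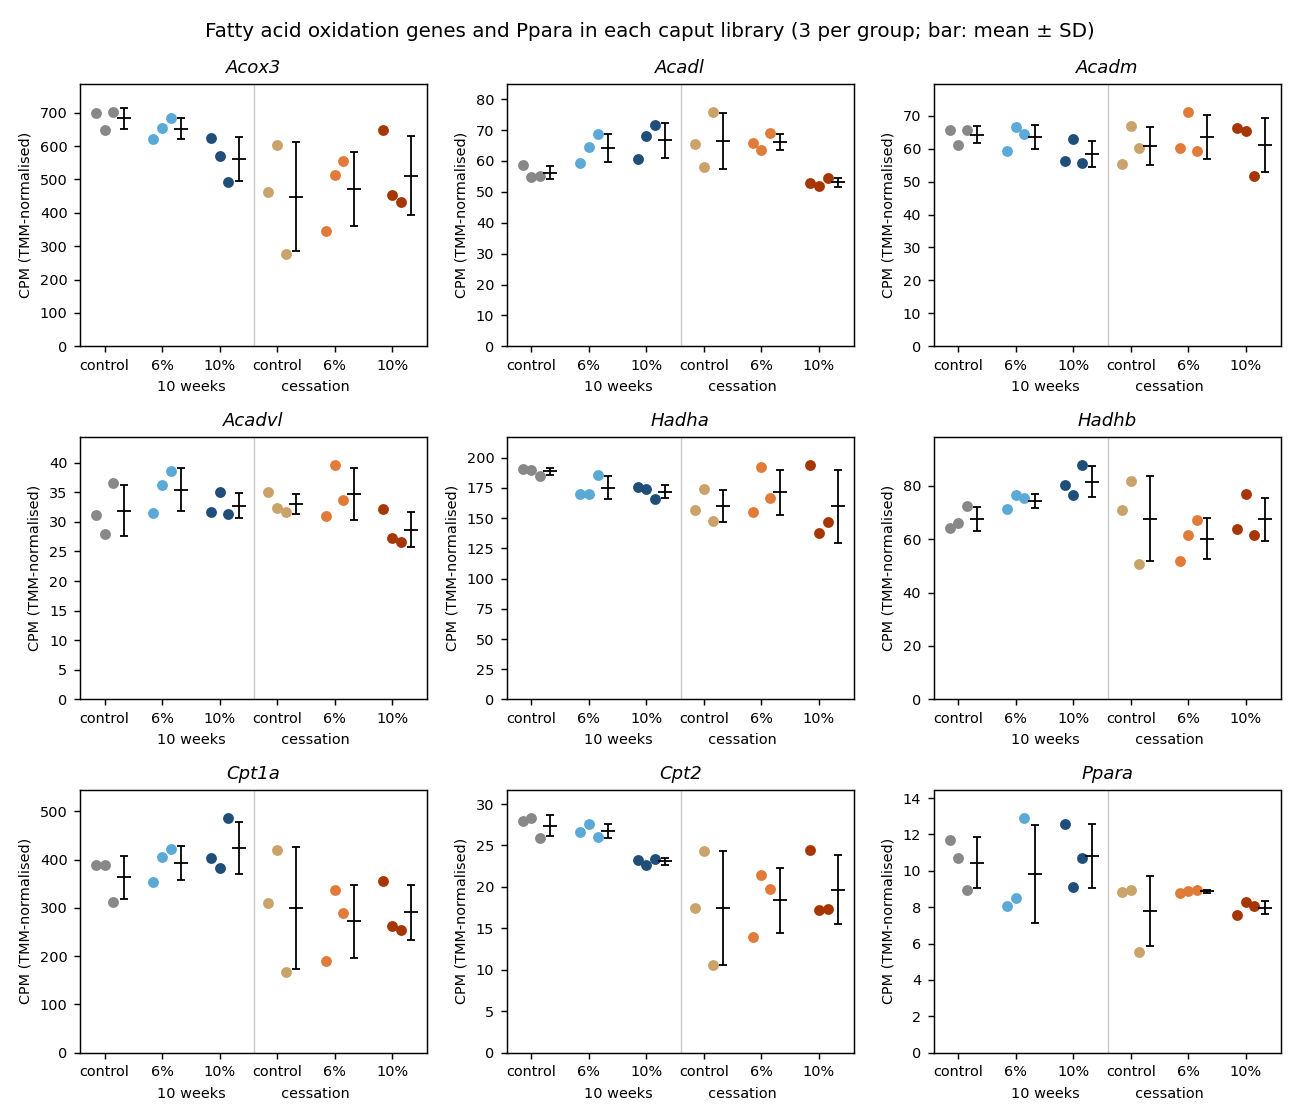
TMM-normalised CPM (linear axes from 0) of the 9 genes in each library; points are libraries, coloured by group, and bars give the mean ± SD of 3. Acox3, Cpt1a and Cpt2 spread widely after cessation, with control replicate 3 lowest, while Acadm stayed between 51.7 and 71.2 CPM throughout.

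The peroxisomal enzyme was set against its mitochondrial counterparts within each library, as log2 CPM of Acox3 minus the mean log2 CPM of the 7 mitochondrial enzymes. At 10 weeks this difference was 3.17 ± 0.05 (SD, n = 3) in controls, 3.04 ± 0.02 on 6% EtOH and 2.84 ± 0.21 on 10% EtOH. All 3 control libraries (3.11 to 3.21) lay above all 6 ethanol libraries (2.62 to 3.05). After cessation it was 2.66 ± 0.34 in controls, 2.75 ± 0.21 on 6% EtOH and 2.93 ± 0.17 on 10% EtOH, and the ranges overlapped. The 3 control values after cessation were 2.74, 2.94 and 2.28, the last of which, replicate 3, was the lowest of all 18 libraries and lowers that mean. The difference is a description of these libraries and was not tested. It rests on 1 peroxisomal gene.

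**Figure D2:**
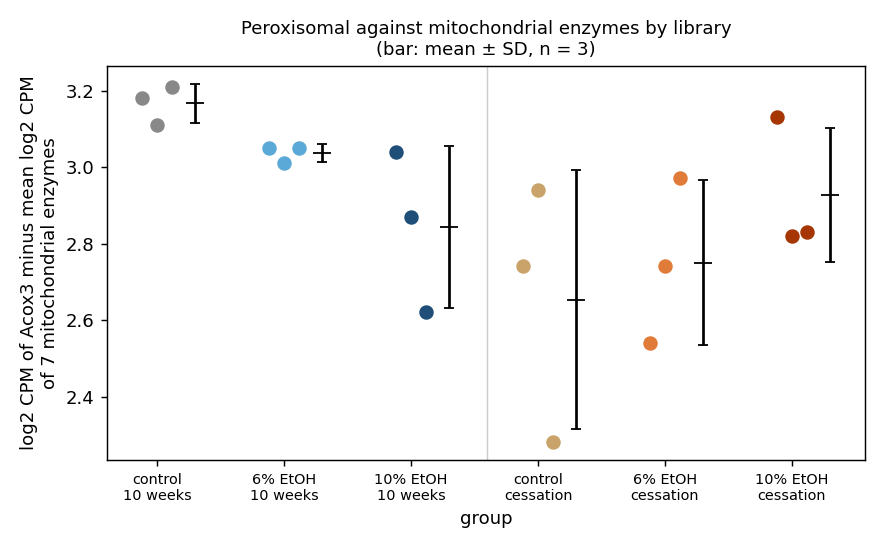
Difference between log2 CPM of Acox3 and the mean log2 CPM of 7 mitochondrial enzymes (axis not from 0), 1 point per library, with the mean ± SD of each group. Controls of 10 weeks lie at 3.11 to 3.21 and the 10% EtOH group of 10 weeks at 2.62 to 3.04.

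Ethanol at 10 weeks left none of the 9 genes past the test. Each dose was compared with its control by edgeR's quasi-likelihood test over all 18618 tested genes, with Benjamini-Hochberg adjustment and a threshold of 0.05. On 6% EtOH 0 of 9 members passed (background 0% of tested genes) and 0 had an unadjusted p under 0.05, against 440 genes in all (2.36%). On 10% EtOH 0 of 9 passed (background 0%) and 1 member, Acadl, had an unadjusted p under 0.05, against 13.4% of genes. DESeq2 also called 0 members at both doses, with 0 genes called in all on 6% EtOH and 73 on 10% EtOH. Log2 fold changes of the 9 members ran from -0.11 to 0.19 on 6% EtOH and from -0.28 to 0.27 on 10% EtOH.

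Single enzymes nonetheless sat apart by library on 10% EtOH. The 10% EtOH and control libraries did not overlap for 5 of 9 members, against 30.7% of all genes, and on 6% EtOH for 1 of 9, against 18.7%. Acox3 had 699, 647 and 703 CPM in controls, 620, 654 and 683 on 6% EtOH and 624, 571 and 492 on 10% EtOH. Its 3 libraries on 10% EtOH were thus the lower ones, at a log2 fold change of -0.28 ± 0.23 (SE; adjusted p = 0.616, edgeR). Cpt2 had 28.0, 28.3 and 25.9 CPM in controls and 23.3, 22.6 and 23.4 on 10% EtOH, a log2 fold change of -0.24 ± 0.22 (adjusted p = 0.646, edgeR). Hadha was also lower in every 10% EtOH library, at 166 to 176 CPM against 185 to 191 CPM in controls.

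Acadl and Hadhb lay on the other side. Acadl, the long-chain dehydrogenase, had 58.7, 54.8 and 55.1 CPM in controls, 59.4, 64.4 and 68.6 on 6% EtOH and 60.6, 67.9 and 71.7 on 10% EtOH. All 6 ethanol libraries exceeded all 3 controls, with log2 fold changes of 0.19 ± 0.11 (adjusted p = 1, edgeR) and 0.25 ± 0.11 (adjusted p = 0.353, edgeR; 95% interval 0.01 to 0.48). Hadhb, the thiolase subunit of the trifunctional protein, had 64.0, 66.0 and 72.4 CPM in controls and 80.3, 76.5 and 87.7 on 10% EtOH, a log2 fold change of 0.27 ± 0.15 (adjusted p = 0.432, edgeR). Its partner subunit Hadha thus lay lower where Hadhb lay higher, and neither passed the test.

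The spread was smaller at 10 weeks than after cessation, with a common biological coefficient of variation of 17% against 31.2%. Over all libraries together it was 25.4%. A fit of the 9 libraries of 10 weeks alone called 1059 of 17154 genes on 10% EtOH (6.17%), and still 0 of 9 members. In that fit 4 members had an unadjusted p under 0.05, against 26.3% of genes, with adjusted p of 0.0650 for Hadhb, 0.0951 for Acox3, 0.101 for Acadl and 0.145 for Cpt2. Replicate 3 of 10% EtOH, whose identifier is of another kind than those of its group, had the lowest Acox3 of the 9 libraries and the highest Acadl, Hadhb and Cpt1a. The summed level of the epithelial markers was 69400 to 75200 CPM in controls, 81100 to 92800 CPM on 6% EtOH and 91000 to 108000 CPM on 10% EtOH, highest in that same library. Other marker sums also lay apart between controls and 10% EtOH, at 217 to 250 and 272 to 440 CPM for macrophages, 609 to 751 and 865 to 987 CPM for fibroblasts, and 1340 to 1690 and 1810 to 2100 CPM for smooth muscle. Those of basal cells were lower on 10% EtOH, at 178 to 194 CPM against 205 to 232 CPM. The part of these markers in the differences was not tested.

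**Figure D3:**
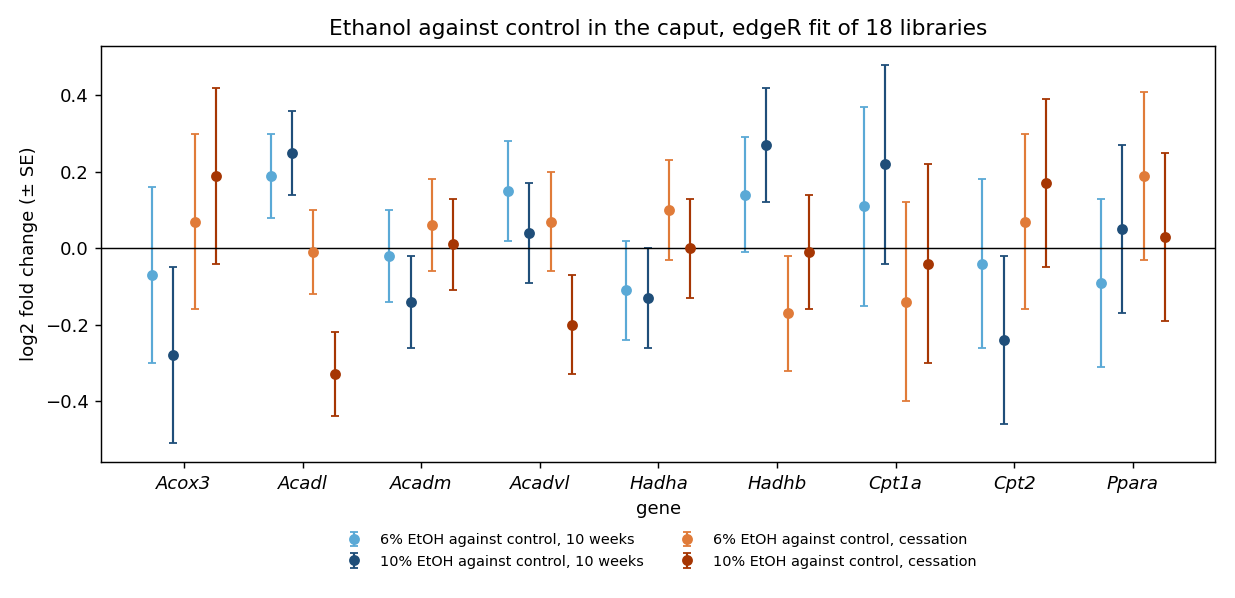
Log2 fold change ± SE of each gene against the control of the same time (edgeR fit of 18 libraries), with 1 colour for each dose and time. The largest distances from 0 are those of Acadl after cessation on 10% EtOH, -0.33, and of Acox3 at 10 weeks on 10% EtOH, -0.28, and none passed the test.

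Of the other lists of the pathway, no gene passed on 10% EtOH at 10 weeks. The smallest p among peroxisomal oxidation genes was that of Crot, which moves shortened acyl chains onto carnitine, at 66.9 CPM in controls and 103 CPM on 10% EtOH (log2 fold change 0.63 ± 0.18, adjusted p = 0.299, edgeR). Acsl3, which activates fatty acids with coenzyme A, had 49.7 and 73.8 CPM (0.57 ± 0.14, adjusted p = 0.299). Rxra, the partner receptor of Ppara, had 82.3 and 60.1 CPM (-0.46 ± 0.15, adjusted p = 0.299), and Fasn, the fatty acid synthase, 652 and 503 CPM (-0.37 ± 0.18, adjusted p = 0.366). These 4 passed in the fit of the 9 libraries of 10 weeks alone, with adjusted p of 0.0228, 0.0293, 0.0465 and 0.0447 by edgeR. That fit called 6.17% of its 17154 genes. The 4 were picked by smallest p in the main fit, which holds the same libraries. Genes of these lists that were not picked were not followed in that fit, so the count does not speak for the lists. The other genes of smallest p in their lists were Nudt19, Acadsb, Crat, Pex13, Pex6, Cd36, Lpin1, Mlycd, Ucp2, Bdh1, Acat1 and Acacb, and none of them passed in either fit.

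After cessation the ethanol groups and their controls again gave 0 of 9 members called, at 6% EtOH (background 0%) and at 10% EtOH (background 0%), by edgeR and by DESeq2, which called 1 gene in all on 6% EtOH and 0 on 10% EtOH. Unadjusted p was under 0.05 for 0 members on 6% EtOH, against 1.62% of genes, and for 1 on 10% EtOH, against 6.66%. Groups did not overlap for 0 of 9 members on 6% EtOH (4.01% of all genes) and for 1 of 9 on 10% EtOH (6.46%). That member was Acadl, with 65.5, 57.9 and 75.9 CPM in controls and 52.7, 51.9 and 54.5 CPM on 10% EtOH. Each 10% EtOH library was below each control, at a log2 fold change of -0.33 ± 0.11 (adjusted p = 0.744, edgeR; without control replicate 3 it was -0.22). The 6% EtOH libraries, at 65.8, 63.6 and 69.0 CPM, lay within the control range.

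Acadl on 10% EtOH was thus above its controls at 10 weeks and below them after cessation. Both groups differed between the times. The mean of controls was 56.2 CPM at 10 weeks and 66.4 CPM after cessation, and that of 10% EtOH was 66.7 and 53 CPM. The test of the change in the effect of 10% EtOH from 10 weeks to cessation gave -0.57 ± 0.16 on the log2 scale (unadjusted p = 0.00211, adjusted p = 0.645, edgeR). For both doses 0 of 9 members passed this test (background 0% at each dose) by edgeR and by DESeq2, which called 0 genes in all at 6% EtOH and 2 at 10% EtOH. Unadjusted p was under 0.05 for 0 members at 6% EtOH (3.01% of genes) and for Acadl alone among the members at 10% EtOH (7.44%).

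The differences that passed the test were between both sampling sets. Over all treatments, Cpt2, Cpt1a and Acox3 were lower after cessation than at 10 weeks, and no member was higher. These were 3 of 9 members, against 17.9% of tested genes called in either direction, 7.21% called lower and 10.7% called higher. Unadjusted p was under 0.05 for 5 members, against 36.7% of genes. No member had all libraries of 1 set apart from the other, against 0.451% of genes. The median log2 fold change of the 9 members was -0.19, beside 0.05 for all tested genes. Age, treatment history and collection cannot be told apart in this comparison, since the labels do not separate them.

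The carnitine shuttle genes stood first. Cpt2 fell by 0.47 ± 0.13 on the log2 scale (adjusted p = 0.0252, edgeR), from 22.6 to 28.3 CPM at 10 weeks (median 26.0) to 10.6 to 24.5 CPM after cessation. Its values after cessation were 17.5, 24.3 and 10.6 CPM in controls, 13.9, 21.4 and 19.8 on 6% EtOH and 24.5, 17.2 and 17.3 on 10% EtOH. Cpt1a fell by 0.45 ± 0.15 (adjusted p = 0.0454, edgeR). It had 389, 389 and 312 CPM in controls, 353, 405 and 421 on 6% EtOH and 403, 383 and 486 on 10% EtOH at 10 weeks, against 311, 419 and 168, then 190, 337 and 289, then 356, 262 and 254 after cessation. The 2 sets of Cpt1a did not overlap within 6% EtOH or within 10% EtOH, and overlapped in controls.

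Acox3, the peroxisomal oxidase, fell by 0.40 ± 0.14 (adjusted p = 0.0469, edgeR). After cessation it had 464, 603 and 278 CPM in controls, 347, 512 and 555 on 6% EtOH and 648, 454 and 432 on 10% EtOH. Control and 6% EtOH libraries were all below those of 10 weeks, and the 10% EtOH libraries overlapped theirs. Ppara, at 8.09 to 12.9 CPM at 10 weeks and 5.56 to 8.96 CPM after cessation, had a log2 fold change of -0.34 ± 0.13 and did not pass (adjusted p = 0.0695, edgeR; 0.0453 by DESeq2).

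The fold changes of the enzymes downstream of the shuttle were nearer to 0. Hadhb had a log2 fold change of -0.19 ± 0.09 (adjusted p = 0.118, edgeR) and Hadha of -0.13 ± 0.07 (adjusted p = 0.217). The dehydrogenases Acadvl, Acadl and Acadm had -0.06 ± 0.08, -0.02 ± 0.07 and 0.00 ± 0.07, with 95% intervals that reached no further than -0.22 and 0.15. The shuttle genes and these enzymes were not tested against each other.

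The 3 calls depended on the libraries, and so did the calls over all genes. With 1 library left out, 850 to 5811 genes passed, against 3335 by the main test. Control cessation replicate 3 and 6% EtOH cessation replicate 1 were left out together, a setting added after the data were seen. They were chosen as lowest in Acox3 and were also lowest in Cpt1a and Cpt2. Leaving them out must make these falls smaller, so no conclusion is drawn from the loss of calls. In that setting 0 of 9 members passed, and 466 of 18894 genes in all. Log2 fold changes were -0.28 for Acox3 (adjusted p = 0.107, edgeR), -0.30 for Cpt1a (0.0944) and -0.35 for Cpt2 (0.0582). When each library was left out in turn, Acox3 lost its call in 13 of 18 cases and kept it without 10% EtOH 10-week replicate 3, control cessation replicate 2, 6% EtOH cessation replicate 2 or 3, or 10% EtOH cessation replicate 1. Cpt1a also lost its call in 13 and kept it without control 10-week replicate 3 or the same 4 cessation libraries. Cpt2 lost its call in 3, without control 10-week replicate 2 or 10% EtOH cessation replicate 2 or 3.

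Within controls alone, cessation against 10 weeks, 0 of 9 members passed by edgeR (background 0.118%) and by DESeq2, which called 993 genes in all. By edgeR 3 members had an unadjusted p under 0.05, against 20.3% of genes. Of these, Cpt2 and Acox3 were lower after cessation and Acadl was higher (0.24 ± 0.11, adjusted p = 0.239, edgeR). The libraries did not overlap for 4 of 9 members, against 25.1% of genes. Those were Cpt2 (-0.65 ± 0.22, adjusted p = 0.142, edgeR), Acox3 (-0.61 ± 0.24, adjusted p = 0.170), Ppara (-0.42 ± 0.22, adjusted p = 0.277) and Hadha (-0.24 ± 0.13, adjusted p = 0.293). Without control cessation replicate 2, Cpt2 (-0.97, adjusted p = 0.00906) and Acox3 (-0.89, adjusted p = 0.0208) passed, and without replicate 3 they were -0.39 and -0.35 and did not. In the test for any difference among the 6 groups, 0 of 9 members passed by edgeR (background 0.295%) and by DESeq2, which called 1900 genes in all. By edgeR 2 members had an unadjusted p under 0.05, against 19.8% of genes.

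Some other genes of fatty acid oxidation were called in the same comparison, in which 17.9% of all tested genes were called, 7.21% lower and 10.7% higher. Of 18 tested other mitochondrial oxidation genes, 4 were lower and 0 higher (22.2% called, median -0.19). They were Eci2, an isomerase for unsaturated chains (-0.35 ± 0.09, adjusted p = 0.0203, edgeR), Acaa2, a thiolase (-0.35 ± 0.09, 0.0245), Slc25a20, the carnitine carrier that links Cpt1a to Cpt2 (-0.31 ± 0.10, 0.0399), and Etfdh, which passes electrons to ubiquinone (-0.20 ± 0.07, 0.0403). Of 21 peroxisomal oxidation genes, 2 were lower and 0 higher (9.52% called, median -0.09), a smaller share than over all genes. Ehhadh, the peroxisomal bifunctional enzyme, went from 31.5 to 39.6 CPM at 10 weeks to 14.6 to 37.2 CPM after cessation (-0.41 ± 0.13, adjusted p = 0.0414, edgeR). Of 16 peroxisome biogenesis genes 3 were lower and 0 higher (18.8% called), with Pex11a, which elongates and divides peroxisomes, at -0.51 ± 0.12 (adjusted p = 0.0185), Pex19 at -0.31 ± 0.10 (0.0377) and Pex16 at -0.28 ± 0.09 (0.0466).

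Genes around the pathway were called in both directions, against the same 17.9% of all genes (10.7% higher and 7.21% lower). Of 10 genes of fatty acid uptake and activation, 3 were lower and 1 higher (40% called). The transporters Slc27a1 (-0.32 ± 0.07, adjusted p = 0.0156, edgeR) and Slc27a4 (-0.55 ± 0.12, 0.0157) and the ligase Acsl5 (-0.26 ± 0.06, 0.0182) fell, and Acsl4, a ligase that favours arachidonic acid, rose (0.40 ± 0.08, 0.0126). Of 15 PPAR receptors and cofactors, Rxra (-0.30 ± 0.09, adjusted p = 0.0315) and Ppard (-0.31 ± 0.11, 0.0485) fell and none rose (13.3% called). Of 11 other PPAR target genes, 3 rose and 2 fell (45.5% called). Pdk4, a brake on pyruvate use, had 1.28 to 2.62 CPM at 10 weeks and 1.47 to 11.2 CPM after cessation (1.38 ± 0.30, adjusted p = 0.0137). Angptl4, a lipase inhibitor, rose by 1.21 ± 0.33 (0.0246), while Mlycd, which removes the Cpt1a inhibitor malonyl-CoA, fell (-0.32 ± 0.10, 0.0323).

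Of 12 fatty acid synthesis genes, 5 fell and 1 rose (50% called). Srebf1, a regulator of lipid synthesis, fell by 0.39 ± 0.08 on the log2 scale (adjusted p = 0.0129, edgeR), Elovl1 by 0.40 ± 0.11 (0.0271) and the desaturase Scd2 by 0.56 ± 0.17 (0.0337), and Mlxipl, a carbohydrate-sensing factor, rose by 0.60 ± 0.18 (0.0314). Without control cessation replicate 3 and 6% EtOH cessation replicate 1, the setting chosen by low Acox3, 466 of 18894 genes passed in all. Of the mitochondrial, peroxisomal, biogenesis and receptor lists 0 genes passed. In that setting 1 gene was higher and 2 were lower for uptake and activation, 1 higher for PPAR target genes and 1 lower for synthesis.

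**Figure D4:**
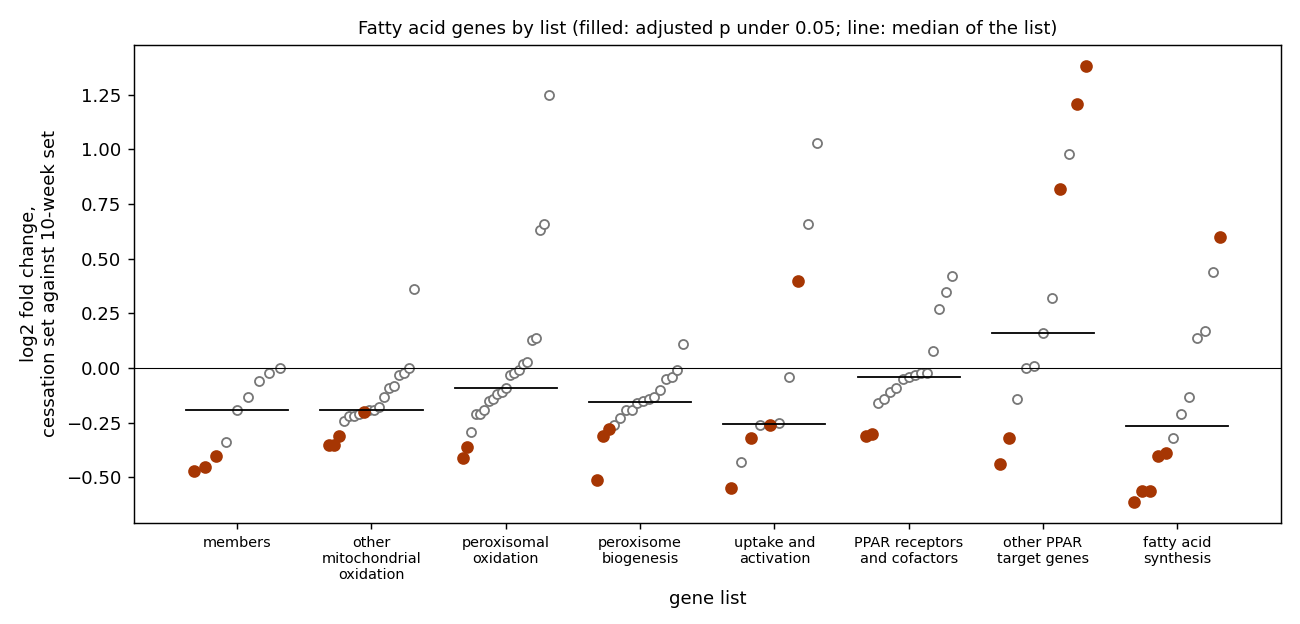
Log2 fold change of the cessation set against the 10-week set for each tested gene of 8 lists, sorted within a list; filled points passed at adjusted p under 0.05 (edgeR) and the line is the list's median. The filled members, Cpt2, Cpt1a and Acox3, lie between -0.47 and -0.40, and the PPAR target genes Pdk4 and Angptl4 lie at 1.38 and 1.21.

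Other markers differed between both sets as well, in a comparison that called 10.7% of all tested genes higher and 7.21% lower. All 12 immediate early genes, which respond within minutes to stimuli, were called, 11 higher after cessation and Egr2 lower, and their summed level was 485 to 655 CPM at 10 weeks and 828 to 2220 CPM after cessation, highest in control replicate 3. Of 9 caput epithelial markers 3 were lower (Lcn8, Lcn9 and Ros1) and 0 higher, with summed levels of 69400 to 108000 CPM and 37100 to 86400 CPM. Of 8 smooth muscle markers 7 were higher, although the summed level (1340 to 2100 CPM and 1260 to 2100 CPM) was held by Actg2, which had a log2 fold change of -0.59 (adjusted p = 0.0578, edgeR). Of 6 endothelial markers 4 were higher (23.3 to 58.6 CPM and 31.5 to 243 CPM). Of 10 macrophage markers 2 were higher (20% called), and of 6 germ cell markers 3 were higher. Of 6 fibroblast markers 2 were higher and 1 lower, and of 12 tested adipocyte markers 1 was lower (8.33% called). Also higher were 2 of 3 tested skeletal muscle markers, 2 of 6 ciliated cell markers and 2 of 5 red blood cell markers. The same held for 1 of 3 basal cell markers and 1 of 4 markers of clear and narrow cells. The part of these in the fall of Cpt2, Cpt1a and Acox3 was not tested.

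Acox3 and Cpt2 followed each other from library to library. Over 18 libraries Pearson's r of log2 CPM between Acox3 and Cpt2 was 0.964 (permutation p = 1e-05, the smallest that 100000 permutations can give; adjusted over 36 pairs 0.00036) and Spearman's rho was 0.889 (1e-05; adjusted 0.00036). Without the 2 libraries farthest from the median of Acox3 r was 0.900. With each group's mean removed, r over all 18 libraries was 0.935. Permutations over the 18 libraries ignored the groups, so their p-values, here and for other pairs, include the difference between both sampling sets. The exact permutations within 1 time ignored the treatments, so their p-values include differences between treatments. Within the 9 libraries of 10 weeks r was 0.676 (exact permutation p = 0.0378, adjusted 0.170) and within the 9 after cessation 0.984 (exact permutation p = 4.13e-05, adjusted 0.00149).

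Cpt1a followed Acox3 after cessation and not at 10 weeks. Acox3 and Cpt1a had r = 0.822 and rho = 0.627 over 18 libraries (permutation p = 0.00013 and 0.00648, adjusted 0.00117 and 0.0333), and r = 0.517 without the 2 farthest. Within times r was -0.626 at 10 weeks (exact permutation p = 0.0900, adjusted 0.279) and 0.940 after cessation (exact permutation p = 0.000292, adjusted 0.00351). The relation over all 18 libraries therefore did not hold at 10 weeks. Of the 36 pairs of members, 12 passed over 18 libraries, 0 within 10 weeks and 3 after cessation. The share of passing pairs among other genes was not computed, so it is unknown whether these counts are particular to the members.

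Hadha and Hadhb, whose proteins form 1 complex and whose promoter sequences overlap, showed no such relation. Pearson's r was 0.163 and rho -0.0341 (permutation p = 0.519 and 0.892, adjusted 0.668 and 0.970). It was -0.770 at 10 weeks (exact permutation p = 0.0130, adjusted 0.134) and 0.0849 after cessation (exact permutation p = 0.827, adjusted 0.875), and 0.250 without the 2 libraries farthest in Hadha.

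**Figure D5:**
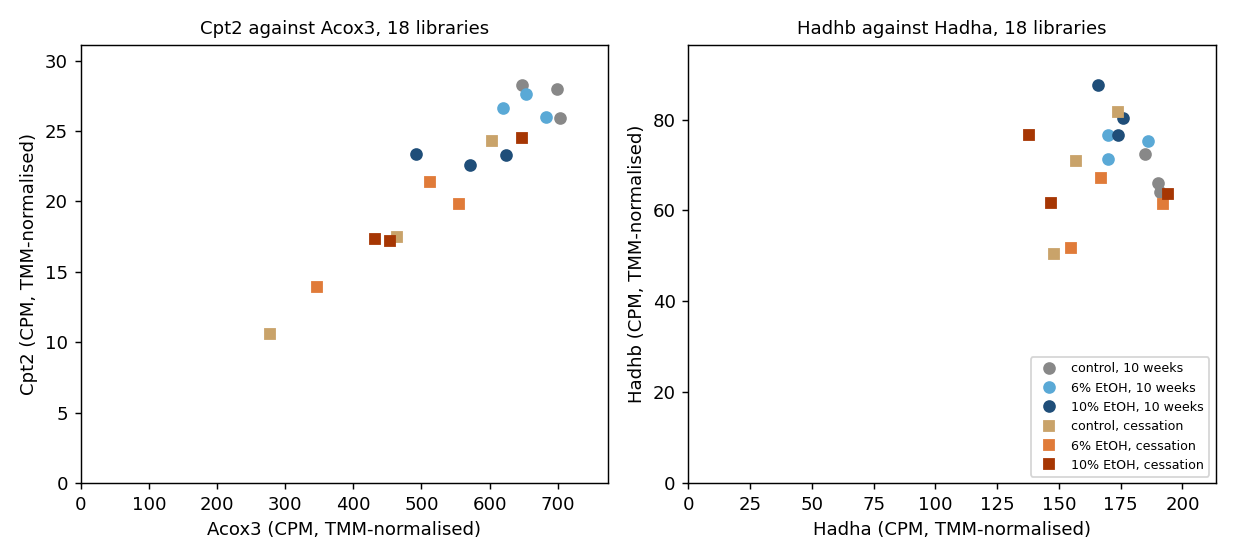
Cpt2 against Acox3 (left) and Hadhb against Hadha (right) in CPM on linear axes from 0, 1 point per library, with circles for 10 weeks and squares for cessation. The left points form 1 line from 278 CPM of Acox3 and 10.6 CPM of Cpt2 upward (r = 0.964 on the log2 scale), and the right points form none (r = 0.163).

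Of 13276 genes averaging 1 or more in log2 CPM, those whose log2 level over the 18 libraries was most like Acox3 were Rab11fip1 (r = 0.980), Ap2a2 (0.980) and Larp1 (0.974). For Hadha they were Eif3c (0.962), Tpm3 (0.940) and Tbc1d7 (0.937), and for Ppara Zcchc14 (0.850), Cyb5rl (0.803) and Gramd1b (0.803). With each group's mean removed, the leading genes were Ildr1 (0.984), Rab11fip1 (0.975) and Sec16a (0.971) for Acox3. They were Eif3c (0.972), Sh3bgrl3 (0.962) and Sf3b2 (0.957) for Hadha, and Zcchc18 (0.869), Thnsl1 (0.836) and Afap1l1 (0.813) for Ppara. Both genes of a pair are read in the same 18 libraries, which differ in depth and time, and these values carry no test.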

How the data were processed

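Gene counts of 18 caput libraries (6 groups of 3) were used. The deposited values are whole-number counts of reads per gene; reads were trimmed, aligned and counted with tools that the submitters' processing notes name as Trimmomatic, STAR and featureCounts, on GRCm39 (mm39). The sources used here do not give versions, strand setting or treatment of multi-mapping reads.

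Genes were filtered with filterByExpr (minimum count 10, minimum total 15), leaving 18618 of 53819, and scaled by TMM (factors 0.914 to 1.20). edgeR 4.0.16 (R 4.3.3) fitted 1 term per group over all libraries with the robust quasi-likelihood test (two-sided), Benjamini-Hochberg adjusted. The standard error is the size of the log2 fold change divided by the root of F. The members and lists were chosen with earlier results of these data known. Named genes were all members and, of other lists, at most 4 called genes of smallest p, or 2 where none was called. Counts of replicates differed by more than sampling noise (chi-square per degree of freedom at least 5.79). The fit was tested on simulated data. Alternatives were RLE scaling, no low-count filter, DESeq2 1.42.0, the libraries of 1 time and leaving out libraries. Transcript lengths came from GENCODE and promoters from RefSeq, both of GRCm38. Some called genes of the other lists are counted and not reported here by name.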

Additional observations from a re-analysis of the deposited data

How the results depend on the processing

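No paired analysis was possible because numbers were assigned by accession order and link no sample to another. Members called stayed at 0 for every ethanol comparison under all alternatives run. The all-gene counts, 0 by the main test, moved. With no low-count filter (36360 genes) they were 44 and 736 for 6% and 10% EtOH at 10 weeks, 51 and 407 after cessation, and 88 and 385 for the change in effect over time. DESeq2 gave 73 for 10% EtOH at 10 weeks, 1 for 6% EtOH after cessation and 2 for the change in the 10% EtOH effect, and the fit of 9 libraries gave 1059 for 10% EtOH at 10 weeks. Leaving out 1 library at a time gave 0 to 191 for 10% EtOH after cessation, the 191 without control replicate 2.

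In controls over time, no filter called 2 members (Acox3 at -0.62 and Cpt2 at -0.66) and 1740 genes in place of 22, DESeq2 993 genes, and leaving out 1 library 0 to 2 members and 0 to 2724 genes. Over all groups, leaving out 1 library gave 0 to 5 members and 850 to 5811 genes (3335 by the main test). In the test of any difference among 6 groups, no filter gave 3 members and 3632 genes in place of 55, DESeq2 1900 genes, and leaving out 1 library 0 to 1 members and 35 to 2000 genes. The most in each of these came without control cessation replicate 2. Without both libraries lowest in Acox3, a setting added after seeing the data, 0 members and 466 genes passed over all groups and 9 genes in controls. RLE scaling kept the 3 members called over time, and DESeq2 called these and Ppara. The fold change of Acadm over time changed sign with DESeq2 (0.00011) and in 8 of the cases leaving out 1 library (-0.04 to 0.03 over all 18), and that of Acadl without control cessation replicate 2 (-0.04 to 0.01 over all 18). The cause of these shifts was not tested. Of the genes of other lists that were followed through the alternatives, none changed direction. Egr2 and Actg2 were not among those followed. Over all genes, counts of replicates differed by more than sampling noise; the share of depth in the error of each member was not tested.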
